A study of Mus musculus with 2 samples.

Results

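The genes described here are the 10 core genes of Wnt/beta-catenin signalling, Ctnnb1, Axin1, Axin2, Apc, Gsk3a, Gsk3b, Tcf7l1, Tcf7l2, Lef1 and Tcf7, chosen by name among the 29833 genes of the expression table of F123 mouse embryonic stem cells (mESCs). The table lists 1 selected transcript per gene and transcript biotype, called a record here, so that the 10 genes have 16 of its 37178 records, 10 protein-coding and 6 noncoding (processed transcripts of the same genes). F123 is a male hybrid line made by crossing S129/Jae and CAST mice, and it carries 1 haplotype of each strain for every autosome. Total RNA was sequenced from 2 biological replicates, which make up the only group of this RNA experiment; no treatment, deletion or second genotype enters it. The cells had been grown on inactivated fibroblast feeders with LIF, then taken off the feeders for at least 2 passages with the LIF doubled, and harvested after about 48 h.

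The deposited values pool both replicates. For each record they are reads carrying the CAST or the S129 base, summed over the heterozygous variants in its span, and levels as TPM, read counts scaled by transcript length and library size. No spread between replicates could therefore be computed, and every interval and p-value below covers the counting of reads only. All reads come from 1 line, so strain of origin and parent of origin cannot be told apart: the CAST haplotype is the paternal one throughout. A read over several variants may be counted more than once, which makes the intervals too narrow.

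In the canonical pathway, secreted Wnt proteins bind Frizzled receptors and Lrp5 or Lrp6. Without Wnt, beta-catenin (Ctnnb1) is held by a destruction complex of the scaffolds Axin1, Axin2 and Apc and phosphorylated by the kinases Gsk3a and Gsk3b, after which it is degraded; with Wnt it accumulates and joins the DNA-binding TCF/LEF factors Tcf7, Tcf7l1, Tcf7l2 and Lef1 on target genes, of which Axin2 is one. In mESCs the pathway favours self-renewal, and Tcf7l1 acts there mainly as a repressor of pluripotency genes.

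The cells carried the markers of their label. All 8 mESC marker genes had a TPM of at least 1, from 12.1 to 381. Of 8 fibroblast markers, 2 passed that level, Thy1 at 3.06 and Col1a2 at 1.01. The list summed to a TPM of 5.64 against 1283 for the mESC list, and its lowest genes were Dcn at 0.036 and Lum at 0.037. Of the lineage markers, 3 of 6 primed and mesoderm genes, 4 of 5 endoderm genes and 4 of 4 neural genes were at a TPM of at least 1, with the highest at 21.4 (Otx2, and Sox17 at 21.4 as well). The part of these other cell types in the values below was not tested.

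Sequences around transcription starts are shown for 3 members: Axin2, because its record alone met the rule for allele-specific expression, and the kinase pair Gsk3a and Gsk3b, because their coding records begin at the RefSeq start itself. Each window holds 250 bases before and 50 after the start, from RefSeq on GRCm38.p6, written 5′ to 3′ on the gene's strand. The Axin2 window, chr11:108920099-108920398 on the plus strand, has its CG dinucleotides in capitals; it holds 31 of them, against a median of 7 over 32851 windows, 89.4% of which hold fewer. In the Gsk3a window, chr7:25237802-25238101 on the minus strand, and the Gsk3b window, chr16:38088751-38089050 on the plus strand, capitals mark the TCF/LEF core letters CTTTG or, read on the other strand, CAAAG.
Axin2: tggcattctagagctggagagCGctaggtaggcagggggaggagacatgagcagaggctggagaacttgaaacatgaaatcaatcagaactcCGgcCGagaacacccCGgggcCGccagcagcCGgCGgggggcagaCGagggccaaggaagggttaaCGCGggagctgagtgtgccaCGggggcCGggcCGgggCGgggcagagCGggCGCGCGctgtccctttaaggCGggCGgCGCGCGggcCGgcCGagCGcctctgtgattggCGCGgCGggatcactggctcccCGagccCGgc
Gsk3a: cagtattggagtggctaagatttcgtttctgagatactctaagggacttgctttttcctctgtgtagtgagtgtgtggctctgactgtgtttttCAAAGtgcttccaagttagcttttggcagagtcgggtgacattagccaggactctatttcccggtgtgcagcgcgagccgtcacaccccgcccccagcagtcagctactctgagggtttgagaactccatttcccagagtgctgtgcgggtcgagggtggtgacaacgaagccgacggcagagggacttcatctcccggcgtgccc
Gsk3b: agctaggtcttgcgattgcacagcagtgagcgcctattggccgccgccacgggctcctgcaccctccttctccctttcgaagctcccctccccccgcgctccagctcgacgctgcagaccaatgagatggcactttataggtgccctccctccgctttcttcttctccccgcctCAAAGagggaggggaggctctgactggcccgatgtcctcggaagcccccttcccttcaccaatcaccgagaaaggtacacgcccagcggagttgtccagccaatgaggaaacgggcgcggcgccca

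RefSeq windows were matched for 8 of the 10 genes, 14 windows in all, and none was matched for Axin1 or Apc. The core letters CTTTG, searched on both strands, were in 9 of the 14 windows and in 53.9% of all windows of that length. The longer form CTTTGAT, which contains the core and was searched with its reverse ATCAAAG, was in 0 of the 14 and in 3.73% of all windows. The 2 Ctnnb1 windows, the 2 Tcf7 windows and the Axin2 window held neither. These are matches of letters in 300 bases and say nothing of binding. The windows and the records do not always meet: the Axin2 coding record begins 451 bases downstream of the RefSeq start and its noncoding record 18525 bases downstream, whereas the Tcf7 coding record begins upstream of both RefSeq starts.

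Levels of the 16 records spanned from a TPM of 0.757 to 42.8, and 13 reached the TPM of 1 taken here as expressed. Of all 37178 records, 17956 did. Among coding records the kinase Gsk3a was highest at a TPM of 42.8, followed by beta-catenin itself, Ctnnb1, at 32.8. Both lie above most of the table: the median TPM of expressed coding records was 6.70, and Gsk3a and Ctnnb1 exceeded 91.2% and 87.9% of them. The scaffold Axin1 (6.86), the T-cell factor Tcf7 (5.21) and the scaffold Apc (4.84) were near that median. Below them were Gsk3b at 3.06, Tcf7l1 at 2.05 and Lef1 at 1.27, and the coding records of Axin2 (0.837) and Tcf7l2 (0.782) stayed under 1. With 1 pooled value per record, no neighbours in this order can be said to differ beyond their spread.

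The TPM values depend on the transcript selected. For Axin2, an inhibitor of the pathway that is also its target, the coding record is a 2-exon transcript covering 9.15% of the gene's span, and the noncoding record, a processed transcript in the middle of the gene, covers 12.1% and had the higher TPM, 3.21. The Apc noncoding record (TPM 5.82) also exceeded its coding record, whereas those of Gsk3b (2.45), Tcf7l1 (1.08), Tcf7l2 (0.757) and Lef1 (1.01) were below theirs. A noncoding record lies on the same strand as the gene, and reads of the coding gene's RNA that fall in its span cannot be told apart from its own.

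**Figure D1:**
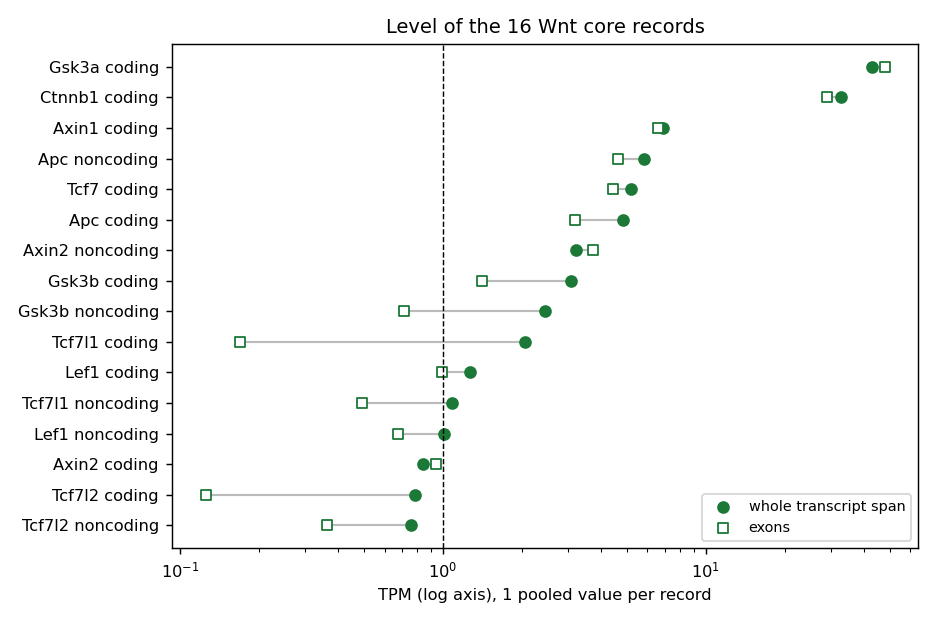
TPM of each of the 16 records over the whole transcript span (filled circles) and over exons alone (open squares), on a log axis, with the expression minimum of 1 dashed; both replicates are pooled, so there are no error bars. Gsk3a and Ctnnb1 are highest on both measures, and Tcf7l1 and Tcf7l2 have exon values far below their transcript values.

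Exon TPM was far below transcript TPM for 2 of the TCF factors. For Tcf7l1 the TPM was 2.05 over the transcript and 0.169 over exons, a ratio of 0.082, and 2.33% of the expressed records with more than 1 exon had a lower ratio. Tcf7l2 had 0.782 and 0.125. Ratios of 0.46 for Gsk3b and 0.66 for Apc were also under the median of 0.886 over 17057 expressed records with more than 1 exon, while Gsk3a (1.12) and Axin1 (0.96) were above it and Ctnnb1 was at 0.88. The selected Tcf7l1 transcript has 6 annotated exons with 463 bases in all, against 155622 bases of span. How the 2 TPM columns were scaled against each other is not given in the sources used here, so the ratio is a description and no measure of splicing.

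Allelic reads were present for 13 of the 16 records. The coding record of Axin2 and the noncoding records of Tcf7l1 and Tcf7l2 hold no counted variant, and the coding record of Tcf7l2 (248 CAST and 242 S129 reads) was under the expression minimum. The remaining 12 records, of 9 genes, were tested. Allele-specific expression (ASE) was called at an adjusted p of at most 0.05 in a 2-sided exact binomial test, at least a 2-fold difference and a TPM of at least 1. By this rule 1 of the 12 records, or 8.33%, was ASE, with S129 higher, against 14.1% of all 15935 records tested (8.33% with CAST higher and 5.78% with S129 higher).

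Smaller imbalances were more frequent. At the adjusted p alone 6 of the 12 records passed, 50.0%, close to the 48.3% of all tested records. Of the 12 tested records, 4 passed with S129 higher and 2 with CAST higher. Of all tested records, 22.9% passed with S129 higher and 25.4% with CAST higher. The 6 records belong to 5 genes, Axin2, Ctnnb1, Tcf7l1, Apc and Lef1. The median absolute log2 ratio of CAST over S129 reads was 0.30 over the 12 records and 0.36 over all tested records, and the median signed ratio was -0.05 and 0.01. These calls assume independent reads: with a beta-binomial test that lets reads of a record correlate at 0.01, only 1 of the 6 records passed (Axin2), and at 0.05 none of the 6 did. The share of all tested records that keep the call there is not given here. The loss therefore cannot be read as particular to these genes. For 10 of the 13 records with reads, the 95% exact interval lay within a 2-fold difference in both directions. The same share over all records is not given here, so this count cannot be read as particular to these genes.

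**Figure D2:**
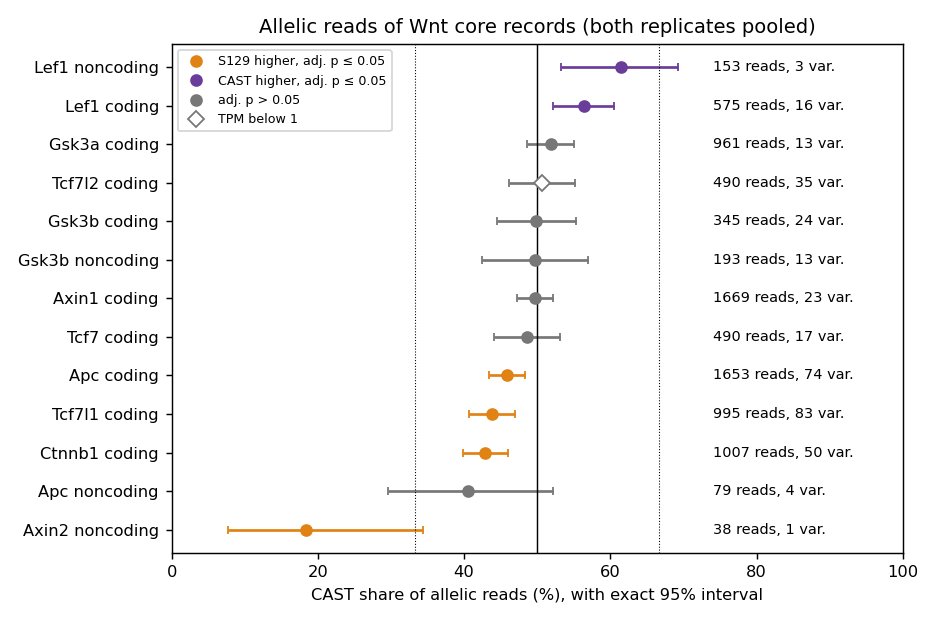
CAST share of allelic reads in percent for the 13 member records with reads, with exact 95% intervals (bars); the solid line marks 50% and the dotted lines 2-fold differences, and reads and variants (var.) per record are at right. The point of Axin2 noncoding alone lies beyond a 2-fold difference, and its interval crosses that line. Lef1 lies on the CAST side, and Apc, Tcf7l1 and Ctnnb1 on the S129 side.

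The selected coding record of beta-catenin, which covers a part of the gene, leaned to the S129 haplotype. This record (chromosome 9, 120933818 to 120951293, plus strand) had 432 CAST and 575 S129 reads at 50 variants, a CAST share of 42.9% (95% interval 39.8 to 46.0). The log2 ratio was -0.41 (SE 0.09) with an adjusted p of 3.02e-05 in the exact binomial test. All 50 variants were intronic relative to the selected transcript, which has 5 annotated exons, covers 55.8% of the gene and ends before the gene does. The last stretch of Ctnnb1 overlaps a short antisense record of Ulk4 (120955351 to 120960507, TPM 214), where 1391 CAST and 1390 S129 reads were counted at 10 variants, a share of 50.0% (48.1 to 51.9). The intervals of these stretches do not overlap. Whether the reads there come from Ctnnb1 or from Ulk4 cannot be told apart in the table; the other Ulk4 record, outside Ctnnb1, had a TPM of 0.368 and 242 CAST against 66 S129 reads.

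Of the scaffolds of the destruction complex, Apc and the Axin2 noncoding record passed the test and Axin1 did not; no difference between scaffolds was tested. Axin1 (chromosome 17, 26138688 to 26195811) was the most deeply read member and no difference was detectable at that depth: 829 CAST and 840 S129 reads at 23 variants gave 49.7% (47.2 to 52.1), adjusted p 0.894 in the exact binomial test. Apc had 758 and 895 reads at 74 variants, a share of 45.9% (43.4 to 48.3) and a log2 ratio of -0.24 (SE 0.07). That passed the exact binomial test with an adjusted p of 0.00243, although the difference was 1.18-fold. The Apc noncoding record inside it had 32 and 47 reads, 40.5% (29.6 to 52.1), and did not pass (adjusted p 0.197, exact binomial test); the coding record without those reads had 726 and 848, 46.1% (43.6 to 48.6).

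Axin2 gave the ASE call. Its noncoding record (chromosome 11, 108938874 to 108942559, plus strand) had 7 CAST and 31 S129 reads, a CAST share of 18.4% (7.74 to 34.3), a 4.43-fold difference and a log2 ratio of -2.15 (SE 0.60), with an adjusted p of 0.000399 in the exact binomial test. The interval reaches past the share of 33.3% that marks a 2-fold difference, so it includes smaller differences. All 38 reads were at 1 exonic variant, where CAST carries the base that differs from the reference. Among the 964 tested records with 20 to 40 reads, the lower 5% ended at a share of 18.8%, just above the Axin2 value. An antisense gene, Gm11670, lies inside the record from 108939310 to 108942015 and has no counted variant. If both records passed the same variant filter, the Axin2 variant lies in the exon bases outside Gm11670. In GENCODE M21 these are 436 bases of the first exon, none of them coding in the full-length Axin2 transcript, and 28 and 369 bases of the 2 later exons, all of them coding there. The rest of the gene has no allelic value here. With 38 reads, 1 variant and a TPM of 3.21, the record is left out by a minimum of 100 reads, of 3 variants or of a TPM of 5, whatever its share. Of all tested records with 1 variant, 16.2% were ASE, and of all tested noncoding records 16.6%.

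Both GSK3 kinases were close to equal between the haplotypes. Gsk3a (chromosome 7, 25228258 to 25237851, minus strand) had 498 CAST and 463 S129 reads at 13 variants, 51.8% (48.6 to 55.0), adjusted p 0.397 in the exact binomial test. Of these reads, 90.5% (450 and 420) lie at the 4 variants shared with 9130221H12Rik, an antisense noncoding gene at a TPM of 183 over the end of Gsk3a. The other 9 variants had 48 and 43 reads, 52.7% (42.0 to 63.3), at 10.1 reads per variant against 218 in the shared stretch. Of the 13 variants, 2 were exonic and 11 intronic relative to the selected transcript, and depth was not compared between exons and introns. Whether the TPM of 42.8 counted reads of that antisense gene was not tested; the sources used here do not state whether the counting used strand. Gsk3b had 172 and 173 reads at 24 variants, 49.9% (44.5 to 55.3), and its noncoding record, which holds 55.9% of these reads, had 96 and 97. Outside that stretch the reads were 76 and 76. In Gsk3b the non-reference base was on S129 at 13 of 24 variants, and in Gsk3a at 8 of 13, whereas over all 9 coding member records with reads it was on S129 at 29 of 335 (8.66%, against 11.1% in the table). It was on CAST at all variants of the coding records of Ctnnb1 (50), Apc (74) and Tcf7l1 (83), which leaned to S129. The same held for Lef1 (16), which leaned to CAST, and for Tcf7 (17), which did not pass. An effect of mapping towards the reference base was not tested.

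**Figure D3:**
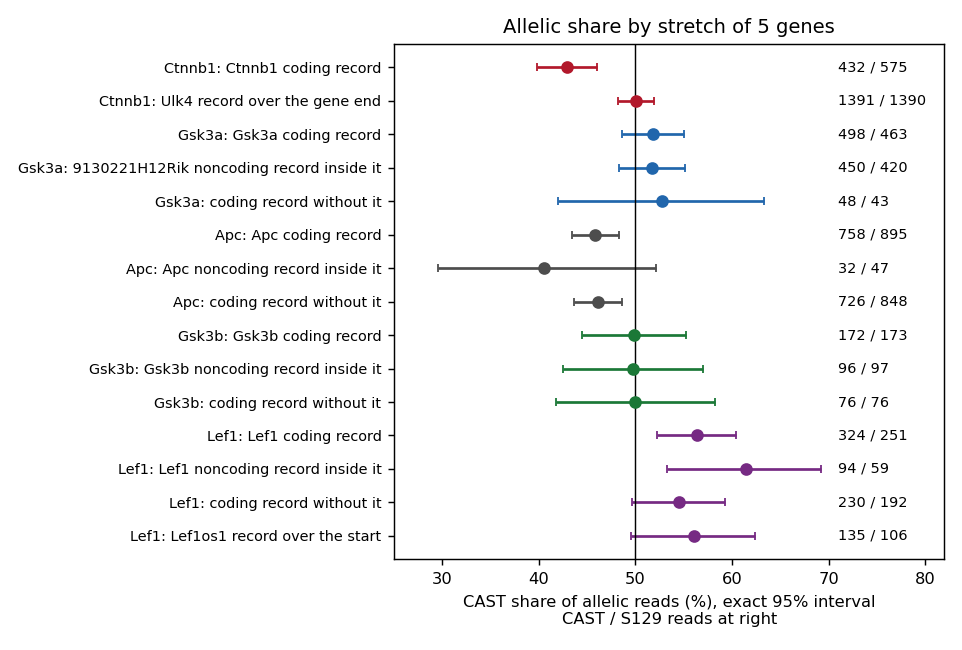
CAST share of allelic reads with exact 95% intervals for whole records and for stretches of Ctnnb1, Gsk3a, Apc, Gsk3b and Lef1; the numbers at right are CAST and S129 reads. The Ctnnb1 record and the Ulk4 record over its end do not overlap, while the stretches within each of the other genes do.

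Among the TCF/LEF factors, Tcf7l1 and Lef1 leaned in opposite directions. Tcf7l1 (chromosome 6, 72632976 to 72788598, minus strand) had 436 CAST and 559 S129 reads, 43.8% (40.7 to 47.0), a log2 ratio of -0.36 (SE 0.09) and an adjusted p of 0.000373 in the exact binomial test. All 83 of its variants were intronic relative to the selected transcript, so exons of other Tcf7l1 transcripts would count as introns. Lef1 (chromosome 3, 131110471 to 131224356, plus strand) had 324 CAST and 251 S129 reads, 56.3% (52.2 to 60.4), log2 ratio 0.37 (SE 0.12), adjusted p 0.00707 in the exact binomial test, and all 16 of its variants were exonic. The intervals of Tcf7l1 and Lef1 do not overlap.

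The Lef1 noncoding record, nested in the coding one, had 94 and 59 reads at 3 variants, 61.4% (53.2 to 69.2), a 1.59-fold difference with an adjusted p of 0.0144 in the exact binomial test. The coding record without those 3 variants had 230 and 192 reads, 54.5% (49.6 to 59.3), an interval that includes 50%. The nested record holds 26.6% of the Lef1 reads, so the Lef1 calls are not independent of each other. At the start of Lef1 the antisense gene Lef1os1 (TPM 10.2) overlaps 1620 bases of the record and had 135 CAST and 106 S129 reads, 56.0% (49.5 to 62.4).

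Tcf7 had 238 CAST and 252 S129 reads at 17 variants, 48.6% (44.1 to 53.1), adjusted p 0.686 in the exact binomial test; it is overlapped over 7277 bases by A630014C17Rik, an antisense record with 88 and 100 reads. Tcf7l2, with 50.6% (46.1 to 55.1), was not tested because of its TPM. Inside its span, on the same strand, the noncoding gene Ppnr accounts for 10 and 18 reads, and the remaining reads were 238 and 224. The shares of Gsk3a, Tcf7l2, Gsk3b, Axin1 and Tcf7 have overlapping intervals that all include 50%.

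Placed in the order of CAST share, the 13 records run from Lef1 noncoding and Lef1 coding at the top to Apc noncoding and Axin2 noncoding at the bottom. Apc, Tcf7l1 and Ctnnb1 have overlapping intervals with each other. The intervals of Tcf7l1 and Ctnnb1 end below the lower bound of Axin1, while that of Apc overlaps it. The interval of Axin2 is so wide that it overlaps Apc noncoding. Summed over the 9 coding records with reads, there were 3935 CAST and 4250 S129 reads, 48.1% CAST, against 50.4% of all allelic reads in the table.

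**Figure D4:**
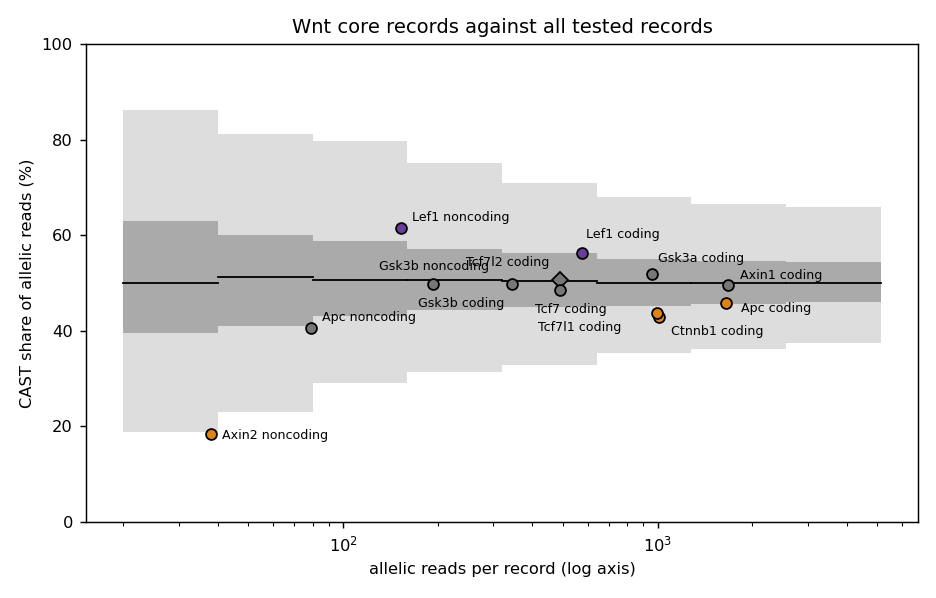
Allelic reads per record (log axis) against the CAST share in percent for the 13 member records with reads (points; orange S129 higher and purple CAST higher at adjusted p of at most 0.05, grey neither, diamond TPM below 1), over the spread of all tested records in bins of reads (dark band middle 50%, light band 5th to 95th percentile, line median). Axin2 noncoding, at 38 reads, lies at the lower edge of the light band, and the other 12 records lie inside it.

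The surroundings of each gene were described by the other genes within 500 kb that do not overlap it, each by its record with most reads, given at least 20 reads and a TPM of at least 1. For comparison, 14.1% of all tested records were ASE and 48.3% passed the adjusted p. Around Ctnnb1 there were 3 such neighbours, with a median log2 ratio of 0.00 and a range from -0.45 to 0.46. None of these was ASE, and 1 passed the adjusted p in each direction. Around Tcf7l1 there were 16, with a median of 0.07 and 1 ASE record (Retsat). Around Axin2 the 3 neighbours ranged from -0.19 to 0.29; none was ASE, and 1 passed the adjusted p in each direction. Lef1 had 3 neighbours with a median of 0.42 and a range from -0.44 to 1.62, among them the ASE gene Rpl34 with CAST higher. Of these neighbours, 2 passed the adjusted p with CAST higher and 1 with S129 higher. Axin1 had 30 neighbours with a median of 0.24, of which 4 were ASE, 2 in each direction, and Gsk3a had 24 with a median of -0.19, of which 6 were ASE, 3 in each direction. Tcf7 had 11 with a median of 0.12 and Tcf7l2 had 2 with a median of 0.05, none of them ASE. The 9 neighbours of Gsk3b had a median of 0.53 with 6 past the adjusted p towards CAST, of which Cd80 and Adprh were ASE, and their non-reference base was on S129 at 97.1% of variants; Gsk3b stayed at -0.01. Of the 12 neighbours of Apc, with a median of 0.16, the 1 ASE gene is itself a Wnt gene, Wnt8a.

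The rest of the pathway was described with 10 lists of 117 other genes, of which 115 were in the table and 77 had a record with a TPM of at least 1. Of 93 tested records, 14 (15.1%) were ASE, close to the background of 14.1%, with CAST higher in 9 and S129 higher in 5. At the adjusted p alone 53 records of 45 genes passed (57.0% against 48.3%), 27 with CAST and 26 with S129 higher. With the beta-binomial test at a correlation of 0.01, 14 of these 53 kept the call, among them 13 of the 14 ASE records; the ASE record that lost it was Frat1 (adjusted p 0.0541). The other record that kept it was Ror2 coding (adjusted p 0.0451), so that every other list record named below as passing the adjusted p without being ASE lost its call there. The share of all tested records that keep the call in this test is not given here. These losses, also those by list below, therefore cannot be read as particular to the pathway. The median absolute log2 ratio was 0.39, against 0.36 over all tested records.

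Ligands were scarce. Of 19 Wnt genes, 17 had no record at a TPM of 1. Wnt8a, the highest at 3.74, was ASE with 117 CAST and 11 S129 reads (log2 ratio 3.41, SE 0.45). Wnt5b passed the adjusted p alone with 857 and 656 reads, but its record overlaps that of Fbxl14 (TPM 69.7), which has those same counts. Notum, the extracellular enzyme that inactivates Wnt proteins, leaned the other way with 6 and 97 reads (-4.01, SE 0.61), counts that the antisense record of Myadml2os repeats.

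Among receptors and co-receptors, 14 of 15 genes were expressed and tested. Of 15 tested records, 2 were ASE (13.3%, against 14.1% of all tested records). At the adjusted p 9 records of 8 genes passed (60%, against 48.3%), 5 with CAST and 4 with S129 higher. The ASE records were the Frizzled receptors Fzd1 (34 CAST and 5 S129 reads, log2 ratio 2.77) and Fzd2 (126 and 16, 2.98). The most abundant receptor, Fzd5 at a TPM of 67.9, did not pass. Fzd6 (154 and 247 reads) and both Ror2 records (854 and 482, and 447 and 283) passed with differences over 1.5-fold. Of the genes for receptor turnover and R-spondins, 0 of 4 records were ASE in the exact binomial test (0%, against 14.1%). Znrf3 alone passed its adjusted p (25%, against 48.3%), and the same 1 was under 0.05 unadjusted. The highest of that list was the R-spondin receptor Lgr4, with a TPM of 9.18 in its noncoding record. Of the list of secreted antagonists and Kremen genes, 1 of 4 tested records was ASE (25%, against 14.1%). This was Sfrp4, which had 9 CAST and 99 S129 reads (-3.46, SE 0.50) and the highest TPM of that list, 5.11. Sfrp5 had 46 and 25 reads and passed the adjusted p.

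Of 8 records of Dishevelled genes and their regulators, 1 was ASE (12.5%, against 14.1% of all tested records), Dact1, with 197 and 93 reads (1.08), and it overlaps an antisense record with 108 and 31. The highest of that list was the noncoding record of Dvl1, at a TPM of 27.2. Of 22 records of destruction complex partners and turnover genes, a list that includes the casein kinase 1 gamma genes, 12 records of 10 genes passed the adjusted p (54.5%, against 48.3%). Of the 22 records, 9 from 7 genes passed with S129 higher, since Csnk1a1 and Tnks2 each passed with both records. Of all tested records, 22.9% passed with S129 higher. With the beta-binomial test at 0.01 only Csnk1e of the 12 kept its call. The 2 ASE records (9.09%) were Csnk1e, a casein kinase, with 75 and 9 reads (3.06), and Frat1, a GSK3-binding protein, with 29 and 65 (-1.16). The Csnk1e record overlaps an antisense record, Gm16059, at a TPM of 13.7 and without allelic reads. Csnk1g3 passed with 219 and 362 reads. The noncoding record of Ppp2r1a, at a TPM of 274 the highest of all lists, had no counted variant. Of 21 nuclear co-factor records, 9 records of 7 genes passed (42.9%, against 48.3%). The 1 that was ASE (4.76%, against 14.1%) was the noncoding record of the co-repressor Tle1. With 324 and 162 reads that record lies exactly at the 2-fold minimum, and the coding record of Tle1 had 746 and 479. Both Tle1 records overlap an antisense record, Gm11250, with 80 CAST and 93 S129 reads at a TPM of 36.9. Ep300 noncoding passed with 100 and 66 reads, and Tle5 was the highest of that list at a TPM of 55.9.

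The 7 records of adherens junction partners come from 4 genes, Cdh1, Ctnna1, Ctnnd1 and Jup, and all 7 passed the adjusted p (background 48.3%), 4 with CAST and 3 with S129 higher. With the beta-binomial test at 0.01 the 2 Jup records alone kept the call, and both Ctnnd1 records overlap Gm28635, which had 361 CAST and 263 S129 reads. The 2 ASE records were both of Jup. Jup encodes plakoglobin, the closest relative of beta-catenin, and had 236 CAST and 825 S129 reads in its coding record (-1.81, SE 0.11) and 70 and 181 in its noncoding record (-1.37, SE 0.20). The highest of that list was the noncoding record of Ctnnd1, at a TPM of 20.3. Of 9 tested records of target genes, 6 passed the adjusted p (66.7%, against 48.3%), 4 with CAST and 2 with S129 higher. The 3 that were ASE (33.3%, against 14.1%, or 8.33% with CAST higher) each had CAST higher: cyclin D1, Ccnd1, with 1159 and 400 reads (1.53, SE 0.08), the transcription factor Klf2 with 133 and 47 and T, or brachyury, with 71 and 6 (3.56, SE 0.61). Myc passed with 110 and 72 reads. The 2 with S129 higher were Tfcp2l1 and Nanog. Tfcp2l1 had 2622 CAST and 3848 S129 reads (-0.55), and Nanog, the highest of the list at a TPM of 169, had 3283 and 4034 (-0.30). The adjusted p from the exact binomial test was 2.63e-75 for Jup coding, 7.12e-84 for Ccnd1 and 6.89e-10 for Klf2.

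**Figure D5:**
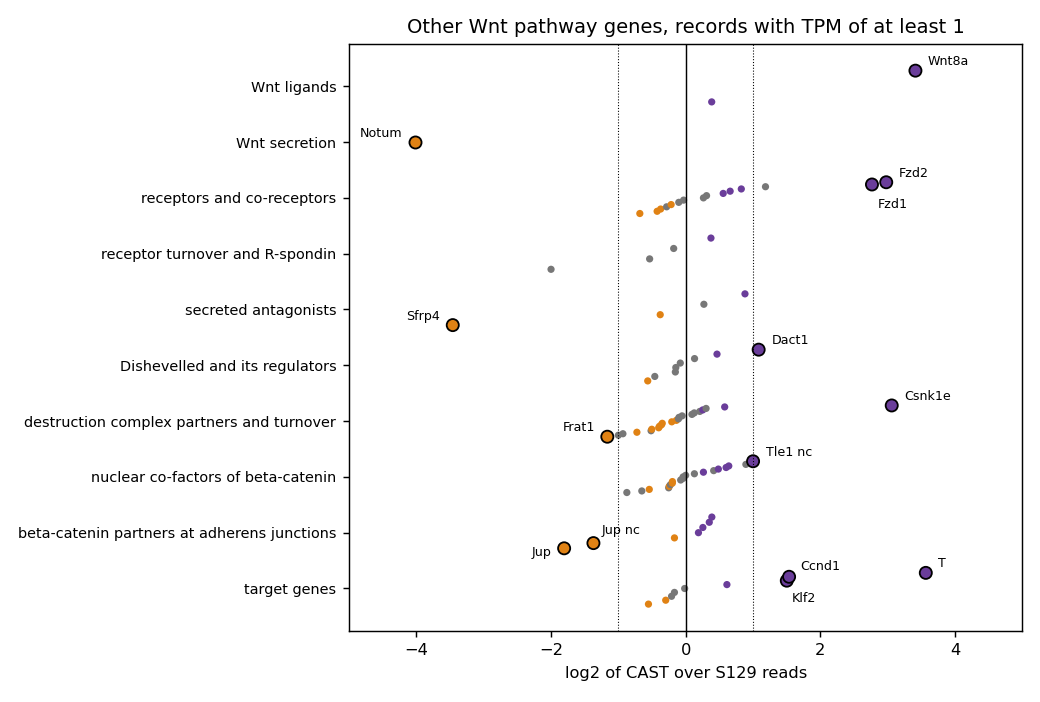
Log2 of CAST over S129 reads for the 93 tested records of the other pathway genes, by list (each point a record; orange S129 higher and purple CAST higher at adjusted p of at most 0.05, grey neither); large outlined points are the 14 ASE records, with nc for a noncoding record, and dotted lines mark 2-fold. The ASE records fall on both sides, 9 with CAST and 5 with S129 higher, and the 3 ASE records of target genes are on the CAST side.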

How the data were processed

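Both biological replicates of total RNA-seq from F123 mESCs were analysed from 1 table that pools them (paired reads of 75 bases, stranded libraries from 1 µg of RNA). The authors aligned reads with STAR 2.7.2c to mm10 (GRCm38.p6) with the F123 variants, removed duplicates, and kept 1 transcript per gene and biotype by RNA polymerase II occupancy. The deposited allelic counts are whole reads per haplotype, summed over variants and replicates, and the deposited TPM values, made by the authors from HTSeq counts over exons and introns, were used as they are. The table held 16343693 allelic reads over 18632 records, a median of 289 per record and 10 variants. The columns of fold changes, ratios, p-values and classes made by the authors were not used.

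CAST and S129 counts were compared per record with a 2-sided exact binomial test against 0.5 and Benjamini-Hochberg adjustment over 18632 records (scipy 1.17.1), after checks on simulated data; 95% intervals were Clopper-Pearson. Intervals cover counting error only, and PCR reads without molecular identifiers are not independent molecules. The genes and lists were chosen with earlier results of these data known. Named were all members, every ASE list record, the highest TPM per list, the 3 largest ratios at 100 reads or more, and records past the adjusted p at 1.5-fold. Wnt5b, Csnk1a1, Tnks2, Cdh1, Ctnna1 and Tfcp2l1 were named after their values were seen. Gene models were GENCODE M21. Alternatives varied reads, TPM, fold, p, null share, overdispersion and records.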

Additional observations from a re-analysis of the deposited data

How the results depend on the processing

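The ASE call of Axin2 and the count of 6 records past the adjusted p depended on the settings. ASE records among the members, 1 as reported, were 0 at 100 or more reads, at a TPM of 5, with a beta-binomial test of correlation 0.05 and with at least 3 variants (chosen after seeing the data), and 2 at 1.5-fold. Records past the adjusted p, 6 as reported, were 1 at a TPM of 5, 1 with the beta-binomial correlation at 0.01, 0 at 0.05, 1 with reads divided by variants, and 3 with the TPM taken over exons (chosen after seeing the data). Other pathway ASE records, 14 as reported, were 7 at a TPM of 5, 6 at correlation 0.05, 8 with divided reads and 22 at 1.5-fold; the whole table, 2249 as reported, gave 1444 at 100 reads, 1117 at a TPM of 5, 487 at correlation 0.05, 894 with divided reads and 4082 at 1.5-fold. With both correlations the log2 ratios of Apc (-0.24), Lef1 (0.37), Lef1 noncoding (0.67), Tcf7l1 (-0.36) and Ctnnb1 (-0.41) no longer passed, nor at 0.05 that of Axin2 (-2.15). With divided reads Apc (-0.26), Lef1 (0.32), Lef1 noncoding (0.63), Tcf7l1 (-0.49) and Ctnnb1 (-0.42) did not pass, and at an adjusted p of 0.01 Lef1 noncoding (0.67) did not. Where the test or the division of reads was changed, fewer effective reads enter by construction. The minimums of 100 reads, of 3 variants and of a TPM of 5 left out the Axin2 record whatever its allelic share. No setting reversed a direction. The minimums of reads, TPM, fold and p and the beta-binomial tests leave the counts unchanged, so they could not reverse one. Of 176 comparisons of a member's ratio with an alternative, 159 kept their side of the threshold. That count includes the TPM minimums, which leave both the ratio and its adjusted p unchanged, even for a record they leave out. With the record of highest TPM, Axin2 was at 3.21 and Apc at 5.82. No replicate could be left out and no paired analysis was possible because the table pools both replicates.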
